A study of Mus musculus with 8 samples.

Results

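The microRNAs (miRNAs) of the miR-106b-25 cluster on mouse chromosome 5 and of its relative on the X chromosome, the miR-106a-363 cluster, were followed in obstructed kidneys. The members were the 7 mature miRNAs mmu-miR-106b-5p, mmu-miR-106b-3p, mmu-miR-93-5p, mmu-miR-25-3p, mmu-miR-106a-5p, mmu-miR-20b-5p and mmu-miR-363-3p, in which mmu stands for mouse and is mostly left out below, found by name among the mouse miRNAs of the array. Of these, 6 of the 7 were listed, with 14 probes, among 1881 miRNAs in all. Detection on at least 4 of the 8 arrays, the requirement for testing, was met by 5 members and by 408 miRNAs in all. The member without a listing, miR-106a-5p, is described with the probes that it shares with miR-17-5p.

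The tissue was whole kidney from C57BL/6 mice, all male and 8 weeks old. It was collected 7 days after surgery, from 4 samples with unilateral ureteral obstruction (UUO 1, 2, 3 and 4) and from 4 samples with a sham operation (Sham 1, 2, 3 and 8). Tying off a ureter blocks the outflow of urine from that kidney, and the model is used to study tubular injury, inflammation and scarring. Each sample was labelled with Cy3 and hybridized to its own Agilent 1-colour miRNA array. The labels state no genotype other than the strain, give 1 time point, and do not say that each sample came from a different mouse, so the p-values measure the spread between these samples.

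miRNAs of one cluster are cut from a common primary transcript, after which each hairpin can leave a mature strand from either arm. A mature miRNA guides Argonaute proteins to messenger RNAs, mainly through its seed, bases 2 to 8. The miR-106b-25 hairpins lie in an intron of Mcm7, which encodes a subunit of the helicase that unwinds DNA for replication. Both clusters are paralogs of miR-17-92, a cluster known from cell proliferation, lymphocyte development and cancer. Members of the miR-106b-25 cluster are known, from human cancer cells, to target the cell cycle inhibitor p21 and the pro-apoptotic factor Bim, and to dampen responses to TGF-β, a main driver of fibrosis.

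The mature sequences are shown because the seeds divide the members, and because near-identical sequences set what the probes can tell apart. Capitals mark the seed, sequences run 5′ to 3′, and all 7 members matched a RefSeq entry on build GRCm38.p6.
miR-106b-5p: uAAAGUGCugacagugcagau
miR-93-5p: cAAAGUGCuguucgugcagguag
miR-106a-5p: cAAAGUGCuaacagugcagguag
miR-20b-5p: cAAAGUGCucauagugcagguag
miR-25-3p: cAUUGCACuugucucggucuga
miR-363-3p: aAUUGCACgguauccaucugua
miR-106b-3p: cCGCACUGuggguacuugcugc
The same seeds occur in these miR-17-92 miRNAs of chromosome 14:
miR-17-5p: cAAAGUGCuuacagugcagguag
miR-20a-5p: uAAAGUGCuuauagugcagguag
miR-92a-3p: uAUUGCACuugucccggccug
The seed AAAGUGC was held by 4 of the members and the seed AUUGCAC by 2, while that of miR-106b-3p occurred in no other mature miRNA of the RefSeq table. With positions counted from 1 at the 5′ end and the miR-17-92 base first, miR-106a-5p differed from miR-17-5p by the single change U10A. miR-20b-5p differed from miR-20a-5p by U1C and U10C. All of these changes lie outside the seed.

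On build GRCm38.p6 the 3 hairpins of the miR-106b-25 cluster lie within Mcm7 at chr5:138165321-138165818, a span of 498 bases on the minus strand. The 6 hairpins of the miR-106a-363 cluster span 875 bases at chrX:52741693-52742567, also on the minus strand. The hairpin of Mir106b, at chr5:138165737-138165818, is shown with its 2 mature arms in capitals, since both arms were on the array and only the first was well above background in both groups.
Mir106b: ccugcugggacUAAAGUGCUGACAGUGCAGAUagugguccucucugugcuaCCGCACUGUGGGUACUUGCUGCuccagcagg

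All signals below are log2 of the spot mean divided by the 75th percentile of that array, unless they are called unscaled, and fold changes are UUO over Sham. The strands that were well above background on all 8 arrays were all higher in UUO kidneys: miR-106b-5p 1.69-fold, miR-25-3p 1.68-fold, miR-93-5p 1.67-fold and miR-20b-5p 1.49-fold. Of the 5 tested members, 4 were called higher and 0 lower at an adjusted p under 0.05 in limma. Of all 408 tested miRNAs, 39.7% were called higher and 27.7% lower in the same fit, so a higher call was common on these arrays. The median log2 fold change was 0.74 over the 5 tested members, against 0.06 over all tested miRNAs.

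mmu-miR-106b-5p, the AAAGUGC strand of the first hairpin, had scaled signals of 0.98, 1.00, 0.90 and 0.90 in UUO 1 to 4, against 0.18, 0.16, 0.23 and 0.20 in Sham 1, 2, 3 and 8. Every UUO array lay above every Sham array. Its log2 fold change was 0.75 ± 0.04 (SE; limma adjusted p = 2.05e-06), from means of 0.95 ± 0.05 in UUO and 0.19 ± 0.03 in Sham (SD, n = 4 each).

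mmu-miR-93-5p, which carries the same seed, had 0.77, 0.80, 0.67 and 0.69 in UUO 1 to 4, against -0.02, -0.01, 0.01 and -0.02 in Sham 1, 2, 3 and 8. The Sham arrays lay close together, with an SD of 0.01, and below all UUO arrays. The log2 fold change was 0.74 ± 0.04 (SE; limma adjusted p = 2.44e-06).

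mmu-miR-25-3p, the strand with the AUUGCAC seed, had 0.29, 0.32, 0.22 and 0.25 in UUO 1 to 4, against -0.47, -0.52, -0.47 and -0.44 in Sham 1, 2, 3 and 8. The groups did not overlap, and the log2 fold change was 0.74 ± 0.04 (SE; limma adjusted p = 1.97e-06). In all 3 miRNAs UUO 1 and UUO 2 lay above UUO 3 and UUO 4.

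mmu-miR-20b-5p, from the X chromosome cluster, had 0.64, 0.67, 0.59 and 0.56 in UUO 1 to 4, against 0.11, -0.05, 0.00 and 0.12 in Sham 1, 2, 3 and 8. All UUO arrays were above all Sham arrays, and the Sham arrays were spread more widely than for the other 3 miRNAs, with an SD of 0.08. The log2 fold change was 0.57 ± 0.05 (SE; limma adjusted p = 3.71e-05). Ranges that did not overlap, with UUO above, were seen in these 4 members and in 35.0% of all tested miRNAs. By size of the log2 fold change, counted from the highest of the 408, miR-106b-5p held rank 69, miR-25-3p rank 71, miR-93-5p rank 72 and miR-20b-5p rank 97.

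Each of these miRNAs had a second probe, shorter by 1 base, and the pairs gave similar changes. The second probe gave 0.76 ± 0.04 for miR-106b-5p, 0.75 ± 0.05 for miR-93-5p, 0.77 ± 0.04 for miR-25-3p and 0.52 ± 0.05 for miR-20b-5p (log2 fold change, SE). All 8 probes were called higher in limma, beside 41.1% of the 771 probes tested. Between 13 and 15 spots stood behind each probe mean on an array, with a coefficient of variation between spots of at most 6.02%.

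**Figure D1:**
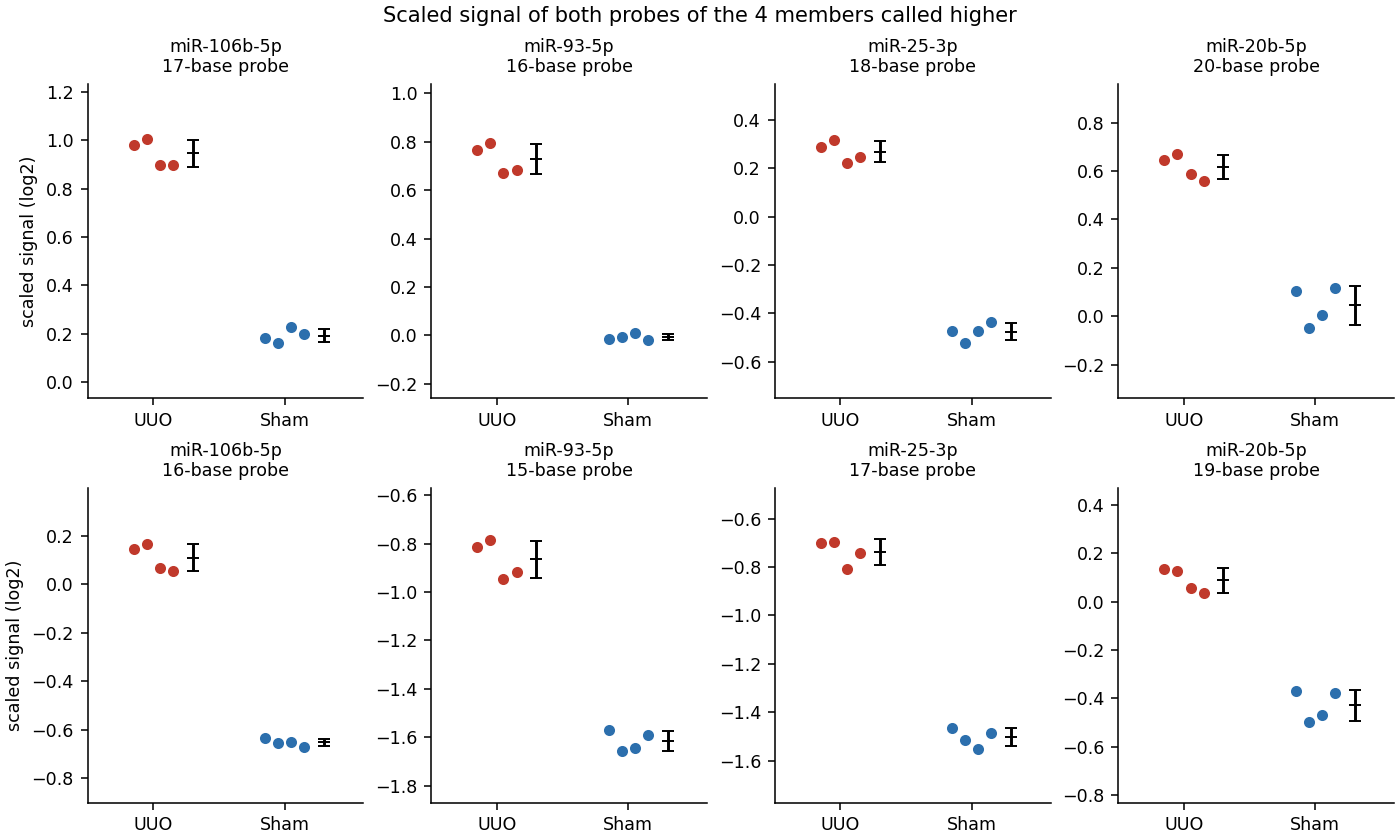
Scaled signal (log2) on each array for both probes of miR-106b-5p, miR-93-5p, miR-25-3p and miR-20b-5p, with UUO left and Sham right in each panel. Points are arrays in the order of their numbers, bars show the mean ± SD (n = 4 each), and each panel spans the same log2 range around its own values. In all 8 panels the UUO arrays lie above the Sham arrays, and the gap is smaller for miR-20b-5p.

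The size of these changes moved with the scaling, and their sign did not. Over 8 ways of scaling or summarising the arrays, the log2 fold change ran from 0.42 to 1.05 for miR-106b-5p, from 0.40 to 1.03 for miR-93-5p, from 0.41 to 1.04 for miR-25-3p and from 0.21 to 0.87 for miR-20b-5p. Each was called higher in 8 of the 8. The median of all tested miRNAs moved too, between -0.23 with the total signal per miRNA and 0.35 with scaling to control features. Measured from that median the ranges narrowed to 0.65 to 0.72 for miR-106b-5p, 0.63 to 0.73 for miR-93-5p, 0.65 to 0.69 for miR-25-3p and 0.44 to 0.56 for miR-20b-5p. With the total signal and the deposited ratios the median was over 499 tested miRNAs, and with the other ways over 408, so it is not over the same set.

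**Figure D2:**
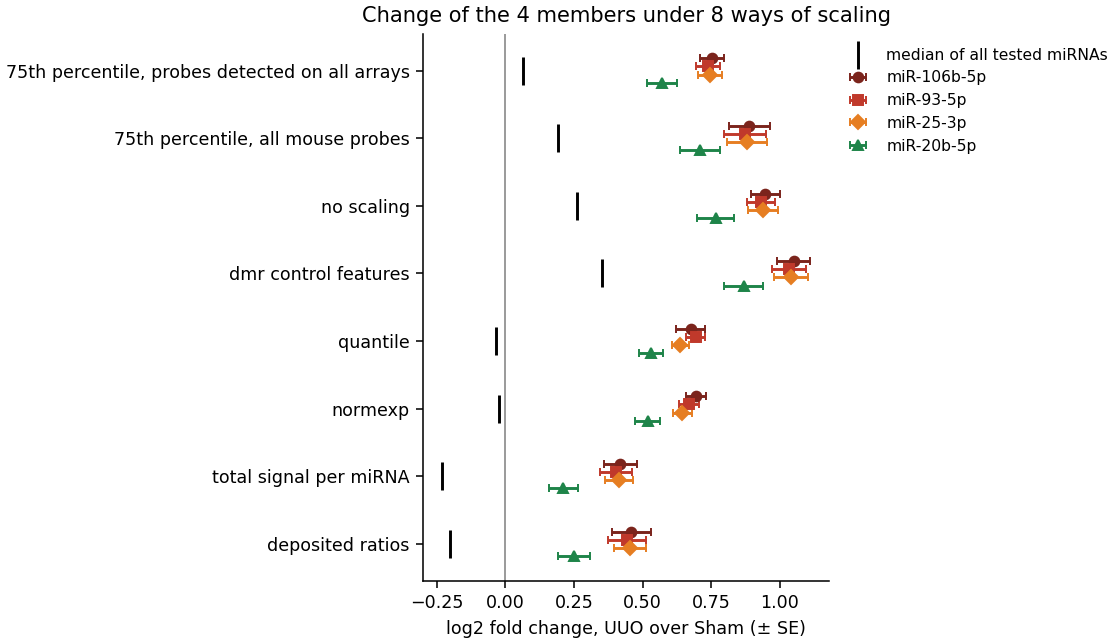
Log2 fold change, UUO over Sham, of the 4 members called higher (symbols, ± SE) under 8 ways of scaling or summarising the arrays, with the median of all tested miRNAs as a black bar. All 4 lie to the right of 0 and of the median in every row, between 0.21 and 1.05, and miR-20b-5p lies left of the other 3.

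The arrays were all on 1 slide, with the UUO samples in row 2 and the Sham samples in row 1, so that row and operation cannot be told apart. Markers of other cell types were read in the same contrast, in which 39.7% of all 408 tested miRNAs were called higher and 27.7% lower. All 7 tested leukocyte miRNAs were called higher, with a summed linear scaled signal of 8.16 to 9.23 in UUO against 2.19 to 2.65 in Sham. Among them, miR-511-3p was well above background on 4 of 4 UUO arrays and 0 of 4 Sham arrays. It met the requirement for testing through the UUO arrays alone, so its call is not independent of that requirement. All 3 fibroblast miRNAs were called higher, with sums of 10.8 to 12.9 in UUO against 2.96 to 3.35 in Sham. Kidney tubule miRNAs were well above background on all 8 arrays, and the tissue label states kidney. Of these, 4 of 5 were called lower, with sums of 19.7 to 24.2 in UUO against 43.3 to 45.0 in Sham. The exception, miR-204-5p, had a log2 fold change of 0.10 ± 0.05 (SE) and was not called (limma adjusted p = 0.0906). Over the 8 ways of scaling or summarising, miR-204-5p was called higher in 3 and lower in 3. Of the red blood cell miRNAs 2 of 3 were called lower, with sums of 2.12 to 3.84 in UUO against 3.71 to 5.46 in Sham. Of the endothelial miRNAs 1 of 2, miR-126a-5p, was called lower, with sums of 10.67 to 12.4 in UUO against 12.5 to 13.2 in Sham. The 20-base probe of miR-126a-5p, the dimmer one, was not called (log2 fold change -0.09 ± 0.08, SE; limma adjusted p over probes 0.304). Of the 5 miRNAs typical of liver, muscle or brain, 4 were tested and 1, the liver miRNA miR-122-5p, was called lower. Its 20-base probe was well above background on 4 of 4 Sham arrays and 0 of 4 UUO arrays. It thus met the requirement for testing through the Sham arrays alone. miR-124-3p was at background, meaning not well above it, on all 8 arrays. The part of these shifts in the members' changes was not tested. In whole tissue, more cells of a type and more miRNA per cell cannot be told apart.

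Both remaining members on the array were near background. miR-106b-3p, the other strand of the Mir106b hairpin, was well above background on 4 of 4 UUO arrays and 0 of 4 Sham arrays, on 1 of its 4 probes. The unscaled spot means of that 15-base probe were 15.8, 16.2, 19.0 and 13.6 in UUO 1 to 4, against 6.30, 7.68, 7.68 and 6.06 in Sham 1, 2, 3 and 8. The unscaled groups did not overlap. Raised to the floor of the scaled signal, log2 -4.89, all Sham arrays and 2 UUO arrays had the same value. The size of its fitted log2 fold change, 0.11 ± 0.07 (SE), depends on that floor, and it was not called (limma adjusted p = 0.205). It was called higher in 3 of the 8 ways of scaling or summarising: without scaling (adjusted p = 0.0327), with scaling to control features (adjusted p = 0.0475) and with the deposited ratios, all in limma. In the deposited ratios all 4 Sham values rest on a constant that the software writes for undetected miRNAs, so that call is set by the constant. With the total signal per miRNA, raised to a floor, miR-106b-3p was not called (limma adjusted p = 0.122).

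miR-363-3p, the last hairpin's strand in the X chromosome cluster, was at background on the 4 UUO arrays, and was well above it on 1 of 4 Sham arrays, Sham 2. It was not among the tested miRNAs. The unscaled spot means of its 19-base probe were 6.21, 6.92, 7.16 and 5.79 in UUO 1 to 4, against 10.6, 13.7, 13.3 and 11.2 in Sham 1, 2, 3 and 8. The groups did not overlap, and here the UUO arrays were the lower ones. The 18-base probe, which was at background throughout, ran from 4.27 to 6.48 in UUO and from 8.89 to 10.6 in Sham.

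The totals that the scanner software gives per miRNA put these small differences on another scale, because it writes 0.1 where it detects none of a miRNA's probes. For miR-106b-3p the totals were 1.84 to 2.55 in UUO and 0.1 on all 4 Sham arrays. For miR-363-3p they were 0.1 on all 4 UUO arrays and 5.86 to 6.98 in Sham. In the authors' deposited table of ratios, made from those totals, miR-106b-3p stood at 3.32 to 5.20 in UUO and 0.261 to 0.301 in Sham. miR-363-3p stood at 0.1001 to 0.118 in UUO and 8.47 to 11.5 in Sham there. A fold change between such values is set by the constant, so none from that table is read as a size of change for these miRNAs.

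**Figure D3:**
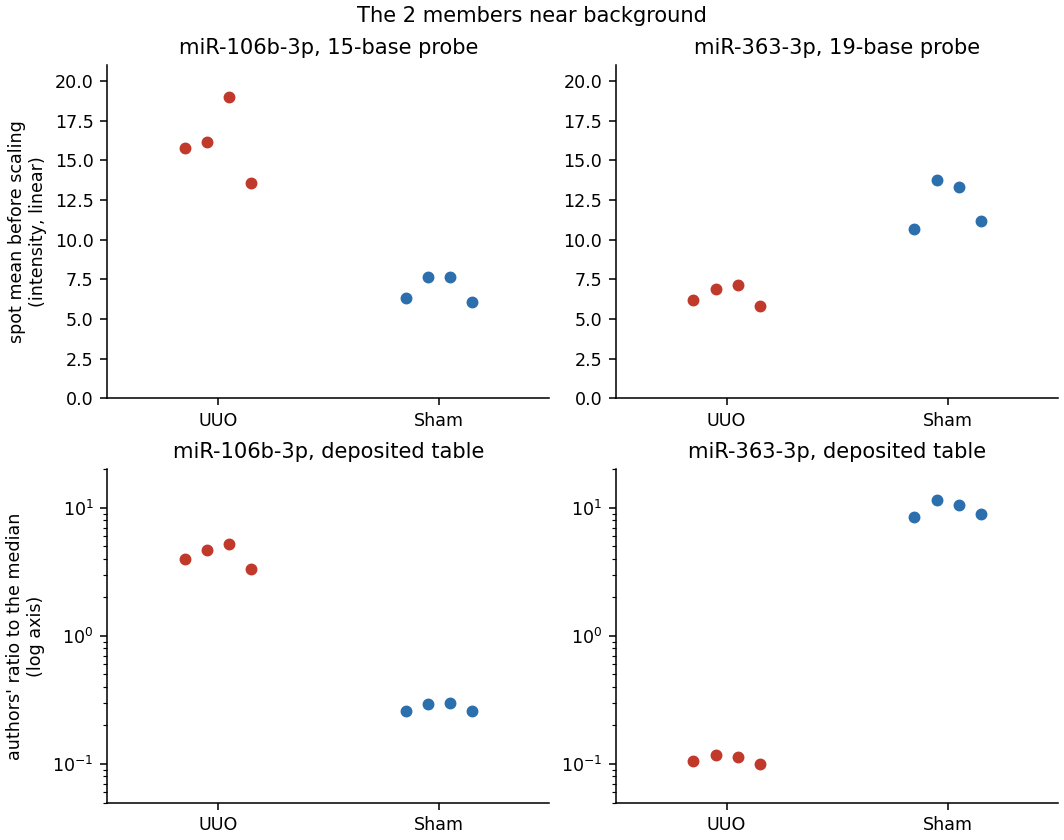
miR-106b-3p (left) and miR-363-3p (right) in UUO and Sham arrays: the unscaled spot mean of the brightest probe (top, linear intensity) and the authors' deposited ratio to the miRNA's median (bottom, log axis). On the spots, miR-106b-3p lies at 13.6 to 19.0 in UUO and 6.06 to 7.68 in Sham, and miR-363-3p at 5.79 to 7.16 in UUO and 10.6 to 13.7 in Sham. The gaps of the deposited ratios are wider, since groups without a detected probe stand at a constant.

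Little else from either cluster was above background. The 9 remaining arms on the array, miR-93-3p, miR-25-5p, miR-106a-3p, miR-18b-5p, miR-18b-3p, miR-20b-3p, miR-19b-2-5p, miR-92a-2-5p and miR-363-5p, were not well above background on any of the 8 arrays. The X chromosome cluster also makes miR-19b-3p and miR-92a-3p, whose mature sequences are encoded at 2 loci each in the RefSeq table, once in this cluster and once in miR-17-92, and their signal cannot be assigned to a locus. miR-106a-5p shared its probes as well. The array's 12-base and 13-base probes named for miR-17-5p list the accessions of both miRNAs, and their sequences are complementary to both. The 13-base probe is shown because it is the brighter one and stops short of the position at which the 2 miRNAs differ.
Probe for miR-17-5p and miR-106a-5p: ctacctgcactgt
That probe had -2.15, -2.17, -2.27 and -2.32 in UUO 1 to 4, against -2.87, -2.98, -3.03 and -2.84 in Sham 1, 2, 3 and 8. The groups did not overlap, and the signal of this shared probe was higher in UUO, with a log2 fold change of 0.70 ± 0.06 (SE; limma adjusted p = 2.68e-05). The probe is also 1 mismatch from miR-20a-5p and from miR-20b-5p, so its signal need not come from miR-17-5p and miR-106a-5p alone. Within the miR-106a-363 cluster, miR-20b-5p had probes of its own with most spots well above background on all 8 arrays, and miR-363-3p met that criterion on 1. The scanner software, by its own criterion, lists miR-363-3p as detected on 4 of 4 Sham arrays.

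The probes of miR-20b-5p differed from miR-20a-5p by 1 mismatch within the stretch that they cover, and cross-hybridization between them was not tested. For miR-93-5p and miR-25-3p no other mature sequence came within 2 mismatches of a probe. In the other direction, miR-25-3p was 2 mismatches from both probes of miR-92a-3p, and cross-hybridization there was not tested. For miR-106b-5p, miR-17-5p and miR-106a-5p were 2 mismatches away. Both probes named for miR-17-5p were 1 mismatch from miR-20a-5p and from miR-20b-5p. The 19-base probe of miR-20a-5p and the 20-base probe of miR-20b-5p were brighter, with UUO means of 1.45 and 0.62 against -2.23 for the 13-base probe. These probes are of unequal length, so their signals do not compare amounts of miRNA. Both miR-20a-5p and miR-20b-5p were higher in UUO themselves. Cross-hybridization to the probes named for miR-17-5p was not tested.

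Differences between members on the same array were compared next, because an array's scaling factor cancels in them. The 3 miRNAs of the miR-106b-25 cluster changed by amounts that could not be told apart. The change of miR-106b-5p exceeded that of miR-93-5p by 0.02 on the log2 scale (95% interval -0.02 to 0.05) and that of miR-25-3p by 0.01 (-0.03 to 0.05). The change of miR-93-5p less that of miR-25-3p was -0.01 (-0.06 to 0.05). None of these was called in the two-sided exact permutation test over the arrays (p between 0.286 and 0.743, n = 4 each).

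Each of the 3 changed by more than miR-20b-5p on the array. miR-106b-5p minus miR-20b-5p was 0.34, 0.33, 0.31 and 0.34 in UUO 1 to 4, against 0.07, 0.21, 0.22 and 0.08 in Sham 1, 2, 3 and 8. The groups did not overlap, and the difference in change was 0.18 (95% interval 0.08 to 0.28). It was 0.17 for miR-93-5p (0.05 to 0.28) and 0.17 for miR-25-3p (0.10 to 0.24), also without overlap. Each had an exact permutation p of 0.0286, the smallest that 70 assignments of 4 against 4 allow. The adjusted p was 0.0408 over all 10 pairs of tested members (exact permutation), of which 7 were called, and 4 of the 7 set a member against miR-106b-3p at its floor. Over the 6 pairs without miR-106b-3p it was 0.0571 (exact permutation), and 0 were called. A limma fit over the 407 other tested miRNAs relative to the partner, chosen after the data were seen, gave adjusted p of 0.00943 for miR-106b-5p, 0.0195 for miR-93-5p and 0.00616 for miR-25-3p against miR-20b-5p.

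Against the miR-17-92 miRNAs of the same seed, 6 pairs could be compared and 0 were called, with 0.0857 the lowest adjusted p over the 6 (exact permutation). The pairs of miR-106a-5p with miR-17-5p and of miR-363-3p with miR-92a-3p could not be compared. miR-106b-5p and miR-93-5p changed by 0.05 (95% interval -0.08 to 0.18) and 0.03 (-0.10 to 0.17) more than miR-17-5p, which includes miR-106a-5p. Relative to miR-20a-5p their changes differed by -0.06 (-0.17 to 0.06) and -0.07 (-0.20 to 0.05). The small difference between miR-106b-5p and miR-17-5p depends on the background correction. With another correction, normexp, miR-17-5p changed by 0.31 and miR-106b-5p by 0.69.

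The 2 other pairs separated the groups. miR-20b-5p minus miR-20a-5p was -0.83, -0.82, -0.84 and -0.86 in UUO 1 to 4, against -0.61, -0.60, -0.58 and -0.61 in Sham 1, 2, 3 and 8, a difference in change of -0.24 (95% interval -0.27 to -0.21). miR-25-3p minus miR-92a-3p was -0.08, -0.12, -0.17 and -0.10 in UUO 1 to 4, against -0.44, -0.31, -0.27 and -0.45 in Sham 1, 2, 3 and 8, a difference in change of 0.25 (0.13 to 0.37). On these arrays miR-20b-5p gained less than miR-20a-5p, and miR-25-3p gained more than miR-92a-3p. Both had an exact permutation p of 0.0286, the smallest possible, and were not called after adjustment. The added limma fit relative to the partner gave adjusted p of 0.00042 for miR-20b-5p and 0.00506 for miR-25-3p.

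**Figure D4:**
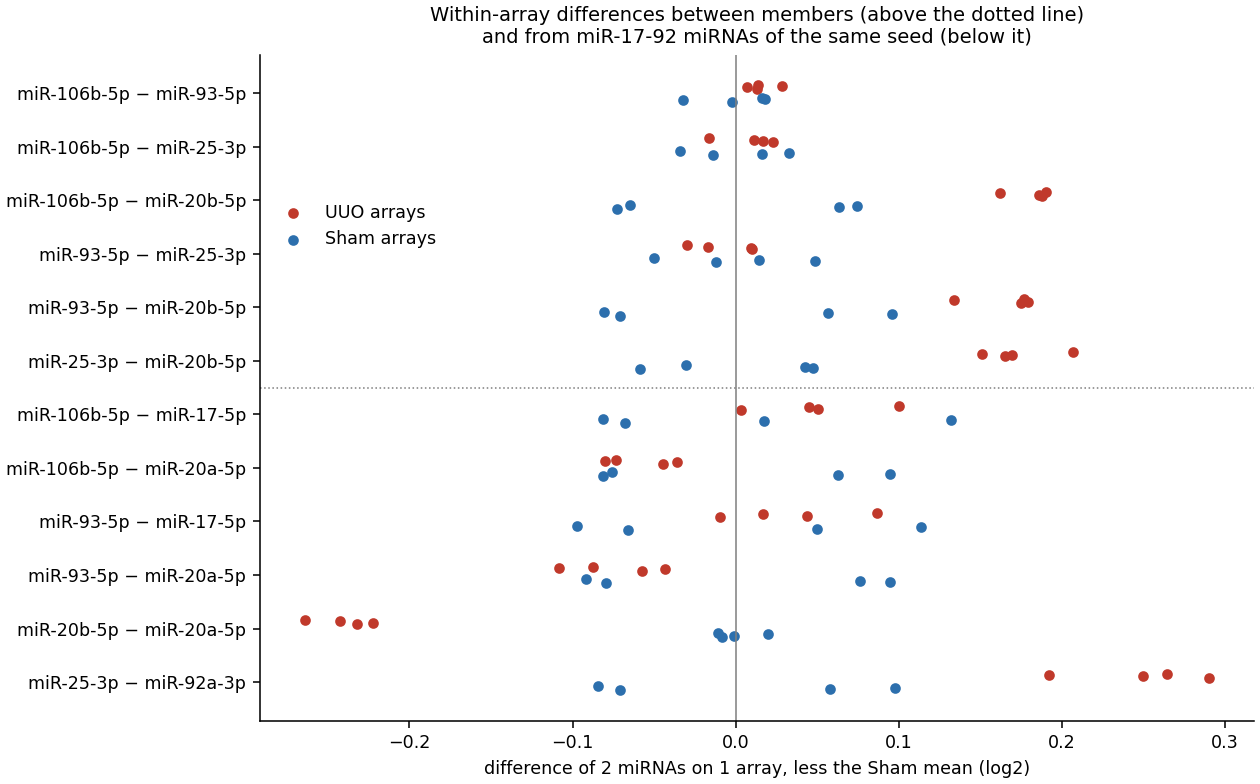
Difference between 2 miRNAs on the same array, less its mean over the Sham arrays (log2), for the 6 pairs of members above background (above the dotted line) and the 6 pairs with miR-17-92 miRNAs of the same seed (below it). Each point is an array, with UUO drawn above Sham in each row. The UUO arrays stand apart from the Sham arrays in the 3 pairs with miR-20b-5p as partner, in miR-20b-5p minus miR-20a-5p and in miR-25-3p minus miR-92a-3p, and overlap them in the other pairs.

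The miR-17-92 cluster itself, the relative of both, had 8 of its 12 mature miRNAs tested and 8 called higher, beside the 39.7% of all tested miRNAs, and their log2 fold changes had a median of 0.68. The largest change was that of miR-18a-5p, 1.75 ± 0.06, followed by miR-19a-3p at 0.84 ± 0.07 and miR-20a-5p at 0.81 ± 0.05 (SE). Over the 8 ways of scaling or summarising, these ran from 0.83 to 2.05, from 0.45 to 1.14 and from 0.50 to 1.11. miR-20a-3p lay at the floor on all 4 Sham arrays, so no size is given for it, and the median over the other 7 was 0.70. Of the 8 ways of scaling or summarising, miR-20a-3p was called higher in 5, and miR-19b-3p and miR-92a-3p in 7 each. miR-18b-5p, the counterpart of miR-18a-5p in the X chromosome cluster, was at background on all 8 arrays. miR-92a-3p and miR-19b-3p, the 2 that the X chromosome cluster also encodes, changed by 0.50 ± 0.06 and 0.49 ± 0.07, values below those of miR-106b-5p, miR-93-5p and miR-25-3p.

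**Figure D5:**
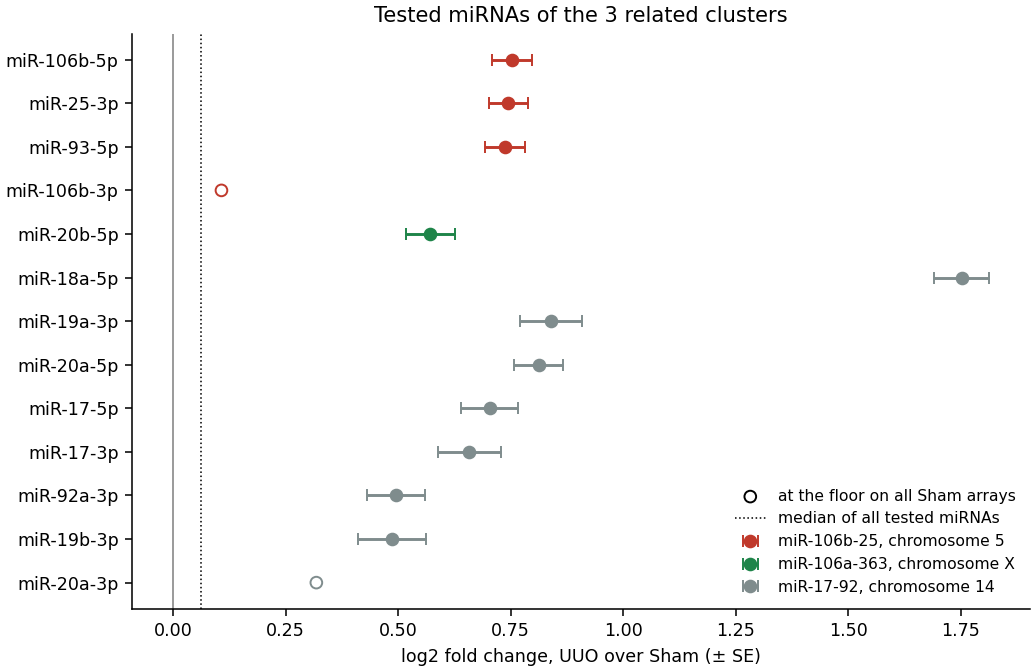
Log2 fold change, UUO over Sham (± SE), of the tested miRNAs of the miR-106b-25, miR-106a-363 and miR-17-92 clusters, with the median of all tested miRNAs as a dotted line at 0.06. miR-106b-5p, miR-25-3p and miR-93-5p lie together at 0.74 to 0.75, and the 7 miR-17-92 miRNAs not at the floor range from 0.49 to 1.75. Open symbols mark miR-106b-3p and miR-20a-3p, which lay at the floor on all Sham arrays, so that the floor sets their place. miR-17-5p includes miR-106a-5p, and miR-19b-3p and miR-92a-3p are also encoded on the X chromosome.

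Not every miRNA with the seed of miR-25-3p was higher. miR-32-5p, encoded on chromosome 4, had -3.14, -2.98, -3.09 and -3.21 in UUO 1 to 4, against -2.84, -2.84, -2.84 and -2.88 in Sham 1, 2, 3 and 8. These values are from its 20-base probe, on which all UUO arrays were below all Sham arrays. The log2 fold change was -0.26 ± 0.05 (SE; limma adjusted p = 0.00339), turning to 0.04 with scaling to control features. It was called lower in 5 of the 8 ways of scaling or summarising. On the 19-base and 18-base probes the groups overlapped. Their changes were -0.23 ± 0.09 (SE; limma adjusted p over probes 0.0453) and -0.20 ± 0.11 (0.145). miR-92b-3p and miR-367-3p, which share that seed too, were at background on all 8 arrays.

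The miRNAs outside these lists whose signals followed the called members most closely were miR-99b-5p, miR-301a-3p, miR-744-5p, miR-1839-3p and miR-28a-3p. Likeness was the root mean square difference over the 8 arrays between a miRNA's log2 signal, less its Sham mean, and the same averaged over the 4 called members. It was 0.03 for miR-99b-5p, 0.07 for miR-301a-3p, 0.08 for miR-744-5p, 0.08 for miR-1839-3p and 0.09 for miR-28a-3p. Among the members it was 0.03 for miR-25-3p, 0.03 for miR-93-5p, 0.04 for miR-106b-5p and 0.10 for miR-20b-5p, although the average holds each of them. miR-99b-5p had a log2 fold change of 0.68 ± 0.04 (SE).

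The miR-106b-25 hairpins lie in Mcm7, and a promoter window of that gene is shown for its sequence. It runs from 250 bases before to 50 after the start of the RefSeq gene model (GRCm38.p6, minus strand, chr5:138171834-138172133). Capitals mark matches to the words TTTCCCGC, TTTGGCGC, TTTCGCGC and TTTGCCGC, which resemble sites of the E2F family of cell cycle transcription factors, searched on both strands.
Mcm7 promoter: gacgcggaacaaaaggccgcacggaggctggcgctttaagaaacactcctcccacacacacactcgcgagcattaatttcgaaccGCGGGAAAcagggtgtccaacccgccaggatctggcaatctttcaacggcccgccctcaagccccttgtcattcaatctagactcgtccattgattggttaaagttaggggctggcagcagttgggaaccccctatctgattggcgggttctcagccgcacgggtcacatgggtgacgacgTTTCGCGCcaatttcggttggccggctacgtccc
The window held 2 matches, which do not overlap, at positions 86 and 267 of the 300. A second window of Mcm7, at chr5:138171217-138171516, held 0. At least 1 match occurred in 2.26% of the 32851 promoter windows in the table. A match is a description of the letters, and neither Mcm7 messenger RNA nor the binding of any factor was measured here.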

How the data were processed

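The deposited files hold spot intensities from Agilent Feature Extraction 10.7.3.1 and mm9 probe positions, per the file headers. Each spot's processed intensity is linear, background-subtracted and not normalized between arrays. The deposited table holds each miRNA's total signal times 1 factor per array, as a ratio to its median over the arrays. What that factor rests on is, in the sources used here, not given. Column medians were 0.766 to 0.903 in UUO and 1.11 to 1.28 in Sham.

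Outlier spots were left out and the rest averaged per probe. A probe was detected where over 50% of its spots were well above background. Arrays were divided by their 75th percentile (taken from 623 probes detected throughout), then raised to a floor. The brightest probe stood for a miRNA. The 408 miRNAs were fitted with limma 3.58.1 under R 4.3.3, the operation being the single term, and p-values adjusted by Benjamini-Hochberg; the fit was tested on simulated data. Pairs were compared by exact permutation tests (scipy 1.17.1), with intervals from the pooled SD of the 8 arrays. Between 720 and 800 probes were detected per array, arrays of a group correlated at 0.991 to 0.999 across tested miRNAs, and the number of arrays limits the precision.

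The named miRNAs were all members, the other arms of both clusters, miR-17-92, the miRNAs with miR-25-3p's seed and the 5 most similar. Members, lists and markers were chosen with earlier results of these data known. Alternatives changed scaling, background correction, summary, filter, floor, blocks and samples.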

Additional observations from a re-analysis of the deposited data

Results flagged for a closer look

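In 2 of the 50 sets of 4 arrays examined, 1 array stood apart from the other 3 of its group by more than Dixon's critical value, and chance flags about 1 in 20 such sets. Both were UUO sets. For miR-106b-5p minus miR-20b-5p, the gap of UUO 3 (0.31, against 0.33 to 0.34 in UUO 1, 2 and 4) was 0.846 of the range. For miR-93-5p minus miR-20b-5p, the gap of UUO 3 (0.08, against 0.12 to 0.13) was 0.905 of the range. All 4 UUO arrays lay above the Sham arrays in both differences.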

How the results depend on the processing

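All 4 members called higher kept that call and direction under each of 21 alternatives (84 of 84 values, log2 fold change 0.21 to 1.05, largest adjusted p 0.00971 in limma). The number called higher was 4, also without any 1 array (4 to 4), and 5 without scaling, with scaling to control features and with the deposited ratios, where miR-106b-3p was called too. With the deposited ratios that added call is set by the software's constant in Sham. The number called lower was 0, and 1 with the total signal per miRNA and with the deposited ratios, where the software detected no probe of miR-363-3p in UUO. Its UUO values stood at the floor with the total signal and at the software's constant with the deposited ratios. Over all miRNAs the calls were 162 higher and 113 lower, against 212 and 77 without scaling, 234 and 63 with scaling to control features, 194 and 84 with the percentile over all probes, 122 and 156 with normexp, 123 and 158 with quantile normalization, 109 and 217 with the total signal, and 118 and 207 with the deposited ratios.

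Pairs of members called numbered 7, against 0 with quantile normalization, 0 with the total signal and 0 without the pairs of miR-106b-3p. Pairs with miR-17-92 called numbered 0, against 4 with quantile normalization, 4 with normexp and 2 with limma relative to the partner. Several values changed sign. With quantile normalization they were -0.0183 for miR-106b-5p minus miR-93-5p, 0.0551 for miR-93-5p minus miR-25-3p and 0.0167 for miR-93-5p minus miR-20a-5p. With normexp, miR-93-5p minus miR-25-3p was 0.0234 and miR-20a-3p changed by -0.0142, and its call was also lost with the floor doubled, the total signal and the deposited ratios. With the total signal, miR-19b-3p and miR-92a-3p were not called. With the mean over probes, the difference from miR-17-5p was -0.00828 for miR-106b-5p and -0.0228 for miR-93-5p. miR-32-5p changed by 0.0404 with scaling to control features. miR-106b-3p minus miR-20b-5p was 0.0391 with the total signal. With the deposited ratios, where the constant sets the values, miR-106b-3p differed by 3.48 from miR-93-5p, 3.47 from miR-25-3p and 3.67 from miR-20b-5p, and miR-106b-5p minus miR-106b-3p was -3.46. Without 1 array, miR-93-5p minus miR-25-3p ran from -0.0238 to 0.00912 and miR-106b-5p minus miR-25-3p from -0.00299 to 0.0193. Apart from the constant, the cause of these changes was not tested.

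Deviations of same-numbered samples correlated at -0.0008, 0.12 and -0.30 for numbers 1 to 3, so numbers were not taken as pairs. With the replicate number as a block (numbers 1 to 3 only), the members changed by 0.77, 0.75, 0.77 and 0.61 for miR-106b-5p, miR-93-5p, miR-25-3p and miR-20b-5p, 4 of them called, and the difference of miR-93-5p from miR-17-5p was -0.0158. Counts of called pairs have no value with a block or without an array, since exact tests of that size cannot pass 0.05. Slide row and operation cannot be told apart, and the size of a change in a dim probe depends on the floor.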

Other observations

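The Sham arrays fell into the same pairs in several of these miRNAs. For miR-20a-5p, Sham 1 and 8 had 0.71 and 0.72 and Sham 2 and 3 had 0.55 and 0.58. For miR-19b-3p, Sham 1 and 8 had 1.94 and 1.90 and Sham 2 and 3 had 1.66 and 1.68. miR-20b-5p showed the same order, with Sham 1 and 8 at 0.11 and 0.12 and Sham 2 and 3 at -0.05 and 0.00, while the Sham arrays of miR-93-5p had an SD of 0.01. Sham 1 and 8 were in columns 1 and 4 of the slide, and Sham 2 and 3 in columns 2 and 3. In UUO, the arrays of columns 1 and 4 had 0.64 and 0.56 for miR-20b-5p and those of columns 2 and 3 had 0.67 and 0.59.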
